A study of Mus musculus with 2 samples.

Results

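The epithelial cells of the mouse lacrimal gland at postnatal day 4 (P4) were 85 cells of 1 droplet library. They were picked from 394 P4 cells that passed the filters (21.6%, exact Clopper-Pearson 95% interval 17.6 to 26.0%), in a series of 1124 barcodes. A P4 barcode was kept with at least 200 detected genes and under 50% haemoglobin UMIs, a UMI being a unique molecular identifier that stands for 1 captured transcript. A kept cell counted as epithelial when its UMIs of Epcam, Cdh1, Krt8, Krt18, Krt14, Krt15, Cldn3 and Cldn7 (E below) numbered at least 3. They also had to exceed those of Col1a1, Col1a2, Col3a1, Dcn, Lum and Pdgfra (M below), with at most 1 UMI of Pecam1, Cdh5 and Emcn. These 17 genes chose the cells, and their values are given as a description. The median E was 29 and the highest 401, and 8 cells sat at the limit of 3. Just outside it, 2 cells had an E of 2 that exceeded M, and 8 cells had enough epithelial UMIs but no more than their mesenchymal UMIs.

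CD1 mice, which are outbred and here wild type, gave the lacrimal glands, taken on embryonic day 16 (E16) and on P4. Glands of each stage were pooled and digested with Liberase, a blend of collagenases, and DNase, and the labels name no sort. Each stage is 1 library, and how many animals went into a pool is not stated in the labels. The same rule found 74 epithelial cells among 234 kept in E16. Cells of 1 library are not replicates, so the values carry no test across animals, and the intervals cover counting error only.

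The lacrimal gland makes the watery layer of tears. Acinar cells secrete proteins, salt and water into a tree of ducts, duct cells modify that fluid and carry it to the eye, and myoepithelial cells wrap the acini and contract. Basal epithelial cells share keratins with the myoepithelial cells, and some of them act as progenitors during growth. In the mouse the gland branches before birth and takes up secretion after it.

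The 85 P4 cells held 596129 UMIs in all, with a median of 3647 per cell (range 778 to 45645) and a median of 1470 genes. The 74 E16 cells held 592985 UMIs, with a median of 6152.5. The libraries shared 0 barcodes, and a doublet caller marked 0 of the 85 cells. Levels are given as CP10K, the UMIs of a gene per 10000 UMIs of the cell, not scaled for gene length, and a mean over cells weights every cell equally and includes the cells with no UMI of the gene.

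All 8 genes that mark this epithelium were detected. Krt18, a keratin of simple epithelia, had a UMI in 80 of 85 cells (94.1%) and a mean of 42.7 CP10K (SD over cells 48.3, n = 85 cells). Epcam, an adhesion molecule of epithelia, was found in 69 cells, and Wfdc18, a small secreted whey acidic protein, in 47. Cldn4, a tight junction claudin, was found in 40 cells, Acta2, smooth muscle actin, in 29 and Krt7, a duct keratin, in 28. Krt19, another duct keratin, was found in 19 cells and Sftpd, surfactant protein D, a collectin that binds microbes, in 12. The markers therefore divide into some carried by most cells and some carried by a minority.

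Markers of other tissue cells were low, but red cell transcripts were not. The 8 erythroid genes summed to a median of 19.5 CP10K (3.47 to 108.63), and their mean was 22.4 against 22.7 in the P4 cells with an E of 0. The summed level of 10 mesenchyme genes was a median of 7.77 CP10K (highest 30.5), against 201 in the 227 cells with an E of 0, and all 10 had a UMI. Between clusters its mean varied only from 6.11 to 9.40. The 10 macrophage genes had a median of 0 (highest 43.3), with none at 0 over all cells. Of 10 pericyte and vascular smooth muscle genes 6 were at 0, among them Pdgfrb, Abcc9 and Cspg4, and the summed level was at most 2.91. Of 10 endothelial genes 4 were at 0 (Cdh5, Cldn5, Esam and Tie1), and the summed level was at most 3.26. Lymphoid, glial and mast cell lists were at most 1.17, 10.4 and 4.77.

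Clustering on 2000 variable genes gave 6 clusters, of which 4 could be named from markers. Cluster 2, with 17 cells (20%, interval 12.1 to 30.1%), was myoepithelial-like, and cluster 4, with 16 cells (18.8%, 11.2 to 28.8%), was duct-like. With 1000 variable genes in place of 2000 no cluster took the duct name (0%). Clusters 0 and 3, with 13 cells each, were both acinar-like, 26 cells together (30.6%, 21.0 to 41.5%). Cluster 1, with 20 cells, and cluster 5, with 6, stayed unnamed. No cluster took the basal name. Depth differed between clusters, from a median of 1894 UMIs in cluster 0 to 14722.5 in cluster 5, so shares of cells with a UMI were also taken after thinning each cell to 1000 UMIs. The genes below were used by the clustering, so their differences between clusters describe the clusters and are not tested. The marker lists also named the clusters, so counts of list genes by cluster are descriptions too.

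**Figure D1:**
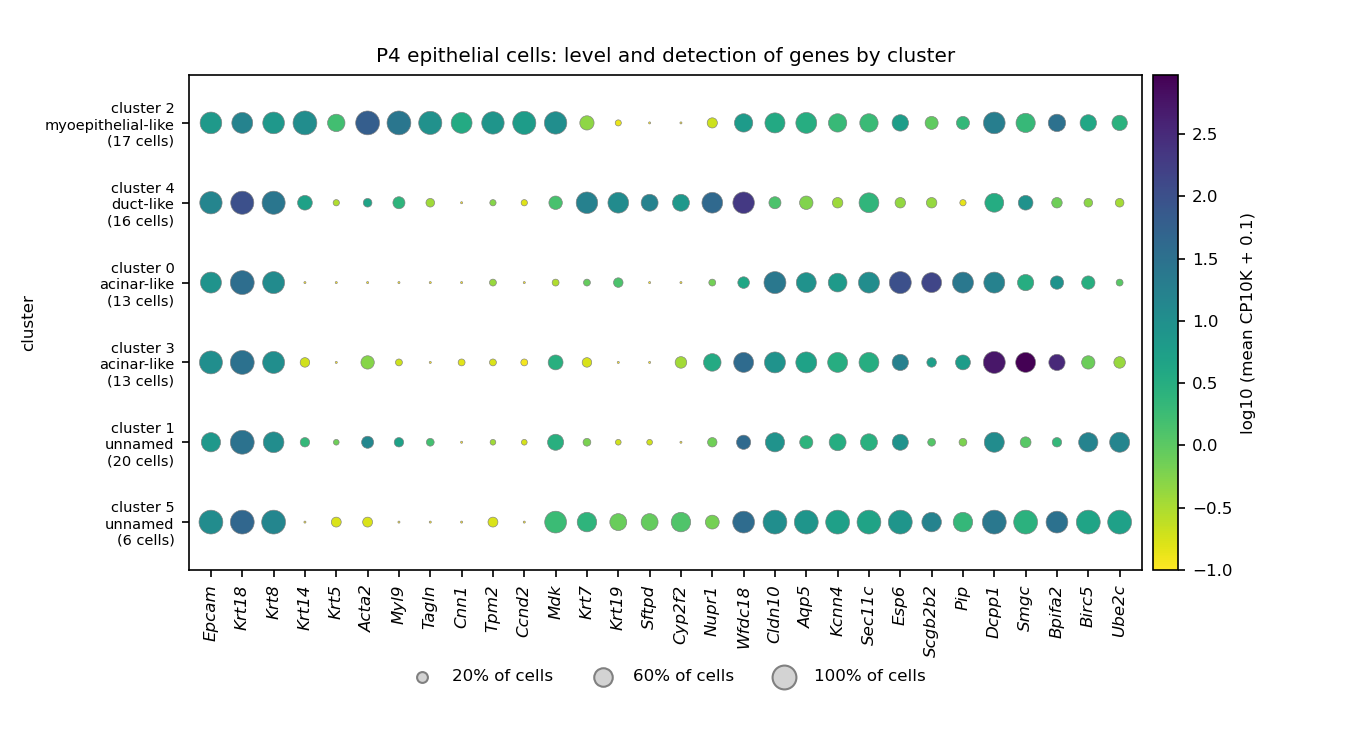
Mean level (colour, log10 of mean CP10K plus 0.1) and share of cells with a UMI (dot area) of 30 genes (x axis) in the 6 clusters of P4 epithelial cells (y axis). The contractile genes are highest in cluster 2 and the duct genes in cluster 4, while Esp6 and Scgb2b2 peak in cluster 0 and Dcpp1, Smgc and Bpifa2 in cluster 3.

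The myoepithelial-like cells carried the contractile apparatus of smooth muscle together with basal keratins. Acta2 (GRCm38 chromosome 19, 34241090 to 34255590, minus strand) was present in 17 of 17 of them, at 6.19 to 195 CP10K with a median of 49.7. It had no UMI in the acinar-like cells of cluster 0 and in 14 of 16 duct-like cells, although 1 duct-like cell reached 68.3 and 1 cell of cluster 1 reached 206. Myl9, a regulatory light chain of myosin, was also present in all 17, at 3.10 to 72.1 with a median of 23.6. The next highest cluster mean of Myl9 was 4.88 CP10K, in cluster 1, against 25.8 here. Tagln, an actin-binding protein, averaged 9.48 CP10K over the cluster, with a UMI in 16 cells. Tpm2, a tropomyosin, averaged 7.77, with a UMI in 15 cells. Cnn1, calponin, a late marker of smooth muscle differentiation, averaged 3.58 and had a UMI in 13 cells, with 1 further cell in cluster 3 and none in the other 4 clusters. After thinning Acta2 had a UMI in 93.3% of the myoepithelial-like cells and in at most 11.8% of another cluster. The myoepithelial list named this cluster and includes the rule gene Krt14, so its count is a description. Of the 10 myoepithelial list genes with at least 30 UMIs, 9 had their highest mean in cluster 2, where 15.7% of all 2752 such genes did. The exception was Tpm1, which other cells use as well, at 5.74 in the duct-like cluster and 5.10 in cluster 2.

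Besides contractile genes the myoepithelial-like cells were led by Ccnd2, a D-type cyclin that drives entry into the cell cycle, at a mean of 6.08 CP10K, with a UMI in 16 of 17 cells. Only 3 cells of other clusters had a Ccnd2 UMI, although cells with an E of 0 averaged 1.63 CP10K. Mdk, the growth factor midkine, was also highest there, at a mean of 10.5 CP10K with a UMI in 15 cells, against a mean of at most 2.82 in another cluster. Id4, an inhibitor of helix-loop-helix transcription factors, averaged 6.97 CP10K with a UMI in 13 cells, and at most 1.32 elsewhere, though a single cell reached 51.5. Oxtr, the oxytocin receptor used for contraction in the mature gland, had 0 UMIs in 596129, which allows a level of up to 0.0503 CP10K. The pericyte and vascular smooth muscle list averaged 0.405 CP10K in these cells, with a highest cell of 2.27. Acta2 and Myl9 were not particular to epithelium in this library. In the cells with an E of 0 they averaged 3.56 and 5.81 CP10K, and after thinning Myl9 had a UMI in 30.1% of those cells and in 19.5% of the epithelial ones.

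Basal genes did not lead a cluster of their own. Krt14, the basal keratin, which the rule also used, had a UMI in 28 cells, and 23 of these also had Acta2. All 17 myoepithelial-like cells held Krt14, at 1.55 to 33.1 CP10K with a median of 8.09. Krt5, the usual partner of Krt14 in keratin filaments, had a UMI in 12 cells, of which 11 had Acta2. Trp63, the transcription factor of basal layers, had 8 UMIs in 6 cells, and all 6 had Acta2. Of Krt14, Krt5, Krt17, Krt15 and Trp63, 20 cells had at least 2. Every 1 of those 20 cells had at least 3 of 14 contractile list genes, as did 30 of all 85 cells. That list includes Tpm1 and Cald1, which had UMIs in every cluster. At least 3 of 14 duct list genes were in 15 of the 20 cells and in 39 of all 85. Of the 20 cells, 14 were myoepithelial-like. Cells with Krt14 were also deep, with a median of 8595 UMIs against 3647 over all 85 cells. The 5 cells with Krt14 and no Acta2 UMI were 4 duct-like cells and 1 of cluster 3. Within the duct-like cluster Krt14 was in 6 of 16 cells and reached 31.0 CP10K.

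The duct-like cells combined simple keratins with defence proteins. Krt7 (chromosome 15, 101411043 to 101430313, plus strand) was in 13 of 16 cells, at 0 to 51.6 CP10K with a median of 15.5. In the other clusters its median was 0 except for cluster 5, at 1.29. Krt19 averaged 11.6 over the 16 cells, 12 of which had a UMI, and at most 1.25 in another cluster. Its highest cell held 46.1% of all its UMIs. Krt18 was found in every cluster but was highest here, at 102 CP10K on average, against 46.5 in cluster 5 and 15.6 in the myoepithelial-like cells. Krt8, its partner, followed the same order at the ends, with 25.8 in duct-like and 7.19 in myoepithelial-like cells. All 12 duct list genes with at least 30 UMIs had their highest mean in cluster 4, where 18.2% of all such genes did. The duct list named this cluster and includes the rule genes Krt8 and Krt18, so the count is a description.

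Sftpd (chromosome 14, 41172214 to 41185149, minus strand) was in 8 of 16 duct-like cells, at 0 to 115 CP10K with a median of 2.33. Only 4 other cells had a Sftpd UMI, 3 of them in cluster 5, and the highest was at 3.02. All 12 cells with Sftpd also had Krt7, and 11 had Krt19. The duct-like cells were therefore uneven, since 8 of them had no Sftpd UMI. After thinning 66.7% of duct-like cells had Krt7 and 53.3% each had Krt19 and Sftpd. Ltf, lactoferrin, an iron-binding tear protein, was in 8 cells, of which 7 had Sftpd, and 1 cell held 52.9% of its 34 UMIs. Cyp2f2, a cytochrome P450 known from airway club cells, averaged 6.95 CP10K over the duct-like cells, 8 of which had a UMI, and at most 1.12 elsewhere. Wfdc18 was in 13 duct-like cells, at 0 to 949 CP10K with a median of 120. It was also in 7 cells of cluster 1, where the highest reached 545, and in 9 cells of cluster 3. Nupr1, a stress-response chromatin protein, averaged 43.1 over the duct-like cells, 12 of which had a UMI, with a median of 9.67. In thinned cells Nupr1 was no more frequent in epithelium (19.5%) than in cells with an E of 0 (25%).

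**Figure D2:**
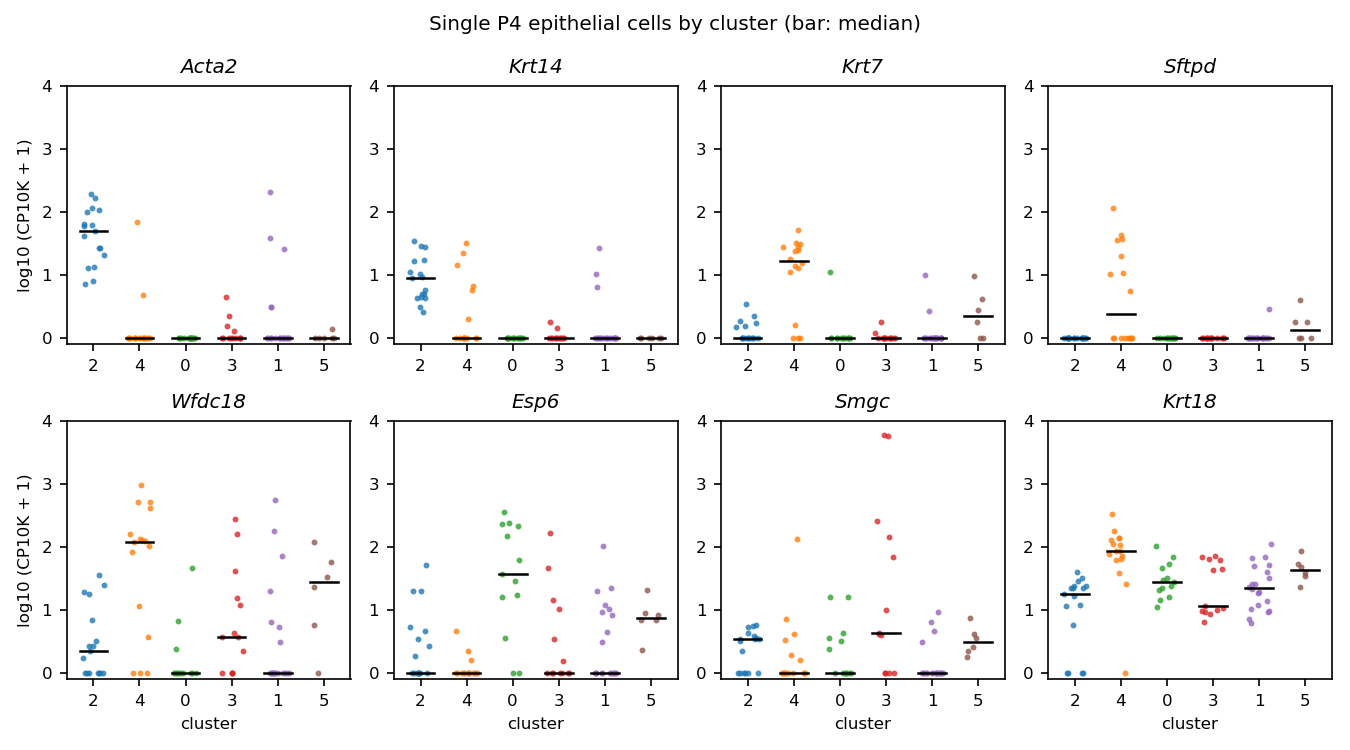
Level of 8 genes in each of the 85 P4 epithelial cells (y axis, log10 of CP10K plus 1) by cluster (x axis, in the order 2 myoepithelial-like, 4 duct-like, 0 and 3 acinar-like, 1 and 5 unnamed), with the median as a bar. Acta2 is present in all 17 cells of cluster 2, whereas Sftpd has no UMI in 8 of 16 cells of cluster 4 and Smgc reaches 6018 CP10K in cluster 3.

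Aqp5, Kcnn4 and Cldn10, which carry water and ions, had higher means in both acinar-like clusters than in the duct-like one. Water and ion transport genes as a list were spread over clusters. Of 11 with at least 30 UMIs, 4 were highest in the duct-like cluster (18.2% of all such genes). Cluster 3 had 3 (8.94%), cluster 0 had 2 (19.6%), and clusters 1 and 5 had 1 each. Aqp5, the apical water channel of acinar cells, averaged 8.80 CP10K in cluster 0 and 4.79 in cluster 3, but 0.462 in the duct-like cells. It also averaged 3.02 in the myoepithelial-like cells, 13 of which had a UMI, 2.44 in cluster 1 and 7.78 in cluster 5. Kcnn4, a calcium-activated potassium channel, averaged 6.68 in cluster 0 and 0.289 in duct-like cells. Cldn10, a claudin that forms ion-selective pores, averaged 24.5 in cluster 0 and 1.25 in duct-like cells, whereas Cldn4 averaged 9.76 in duct-like cells and 0.639 in cluster 0. Cldn10 averaged 8.59 in cluster 3, 8.45 in cluster 1, 10.5 in cluster 5 and 3.71 in the myoepithelial-like cells. Neither Aqp5 nor Cldn10 was thus particular to the acinar-like clusters. Of the 8 junction genes with at least 30 UMIs, 6 were highest in the duct-like cluster, where 18.2% of all such genes were. The 8 include rule genes such as Cldn3 and Cldn7.

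The 2 acinar-like clusters differed in which secreted proteins they transcribed. Cluster 0 was led by secretoglobins and small lacrimal peptides. Esp6 (chromosome 17, 40561507 to 40565627, plus strand), of the exocrine gland-secreted peptide family that carries chemical signals between mice, was in 11 of its 13 cells, at 0 to 351 CP10K with a median of 35.5. Scgb2b2, a secretoglobin of the androgen-binding protein family, was in 9 cells, at 0 to 977 with a median of 25.7. Pip, prolactin-induced protein, had a UMI in 10 cells and a cluster mean of 23.7. Duct-like cells had Esp6 at 0.337 CP10K, Scgb2b2 at 0.328 and Pip at 0.0385. Other leading genes rested on few cells. Scgb2a2 had 72.9% of its 199 UMIs in 1 cell, and Fgg, a fibrinogen chain, had 51.4% of its 72 UMIs in 1 cell.

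Cluster 0 also had the highest levels of the machinery that puts proteins into the secretory pathway. Of 31 secretory pathway genes with at least 30 UMIs, 19 had their highest mean there, where 19.6% of all such genes did. Sec61b, a subunit of the channel into the endoplasmic reticulum, averaged 20.8 CP10K with a UMI in all 13 cells, and 3.82 in duct-like cells. Spcs2 and Sec11c, subunits of the signal peptidase, averaged 19.1 and 11 CP10K, against 5.44 and 2.23 in duct-like cells. Xbp1, a transcription factor of secretory cells, averaged 5.90, against 2.43. Of 16 acinar list genes with at least 30 UMIs, 6 were highest in cluster 0, 8 in cluster 3 (8.94% of all such genes) and 2 in the duct-like cluster. This cluster was the shallowest, and the part of depth in these means was not tested.

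Cluster 3 was led by Prol1, Smgc, Bpifa2 and the Dcpp genes, and these were concentrated in very few cells. Smgc (chromosome 15, 91838265 to 91861438, plus strand), a mucin-like gland protein, ranged from 0 to 6018 CP10K there, with a median of 3.21. Bpifa2, an antimicrobial protein of saliva and tears, ranged from 0 to 2218, with a median of 0. Prol1, a proline-rich tear protein, had 99.3% of its 3379 UMIs in 1 cell. Dcpp1, Dcpp2 and Dcpp3, secreted proteins of salivary and tear glands, lie side by side on chromosome 17 (23880876 to 23882853, 23880880 to 23900788 and 23917458 to 23919441 in GENCODE M21, each on the plus strand). Dcpp2 has an annotated span that contains that of Dcpp1 in large part, and the reference transcripts of the 3 genes, of 617, 589 and 610 bases, are 94.2 to 96.1% identical where aligned. No label says how reads were divided among the copies, so the 3 genes are described mainly by their sum.

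The 250 bases before the RefSeq start of each Dcpp gene are shown because the 3 genes were high in the same cells. They are RefSeq sequence of build GRCm38.p6, at chr17:23880626-23880875, chr17:23898472-23898721 and chr17:23917208-23917457, 5′ to 3′ on the plus strand. For Dcpp2 the RefSeq start follows base 23898721, inside the GENCODE span above and far from its first base. Capitals mark the 14 bases in each that differ from, or have no partner in, the alignment with at least 1 of the other copies, including bases at the ends where the windows are offset.
Dcpp1: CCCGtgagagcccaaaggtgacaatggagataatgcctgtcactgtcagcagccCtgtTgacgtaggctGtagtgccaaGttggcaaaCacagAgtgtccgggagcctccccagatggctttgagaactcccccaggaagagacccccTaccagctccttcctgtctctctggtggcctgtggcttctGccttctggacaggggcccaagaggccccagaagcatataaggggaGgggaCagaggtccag
Dcpp2: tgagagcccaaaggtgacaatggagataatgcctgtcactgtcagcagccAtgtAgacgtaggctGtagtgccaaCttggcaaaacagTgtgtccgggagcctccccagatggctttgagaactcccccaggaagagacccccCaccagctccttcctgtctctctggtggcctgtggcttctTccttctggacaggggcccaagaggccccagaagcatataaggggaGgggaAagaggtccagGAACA
Dcpp3: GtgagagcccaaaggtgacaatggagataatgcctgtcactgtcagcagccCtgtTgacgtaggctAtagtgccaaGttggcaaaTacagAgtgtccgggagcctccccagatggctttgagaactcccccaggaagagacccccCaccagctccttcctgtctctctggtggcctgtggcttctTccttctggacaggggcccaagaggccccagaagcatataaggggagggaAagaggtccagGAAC
The windows were 93.3% (Dcpp1 and Dcpp2), 94.9% (Dcpp1 and Dcpp3) and 96.4% (Dcpp2 and Dcpp3) identical, gaps counted as differences. Each held the letters TATAA 1 time on the gene's strand and 0 times on the other. Its first base lay at -26, -31 and -29, counted from the RefSeq start. Among 16560 such windows of plus-strand genes, 22.4% held TATAA on either strand, and 4.99% held it on the gene's strand within the last 50 bases.

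In 2 cells of cluster 3 the Dcpp genes dominated the whole transcriptome. They made up 33164 of 45645 UMIs (72.7%) in one and 21599 of 34444 (62.7%) in the other, and these were the 2 deepest cells. Within the first of these cells Dcpp1 held 37.3% of UMIs, Dcpp2 20.0% and Dcpp3 15.3%. The second held 26.2, 20.6 and 15.9%. In both cells the copies thus kept the same order. Another 2 cells, with 8245 and 8074 UMIs, were dominated by Smgc instead, at 60.2 and 57.3% of their UMIs, and held Dcpp1 at 0.0728 and 0.0124%. The cell next in rank combined Prol1 and Bpifa2, at 17.9% each, with 3.32% Car6, a secreted carbonic anhydrase. The one after it held 22.2% Bpifa2 and 3.95% Dcpp1. These 6 cells were all in cluster 3, and 7 of its 13 cells gave under 10% of their UMIs to secretory products.

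**Figure D3:**
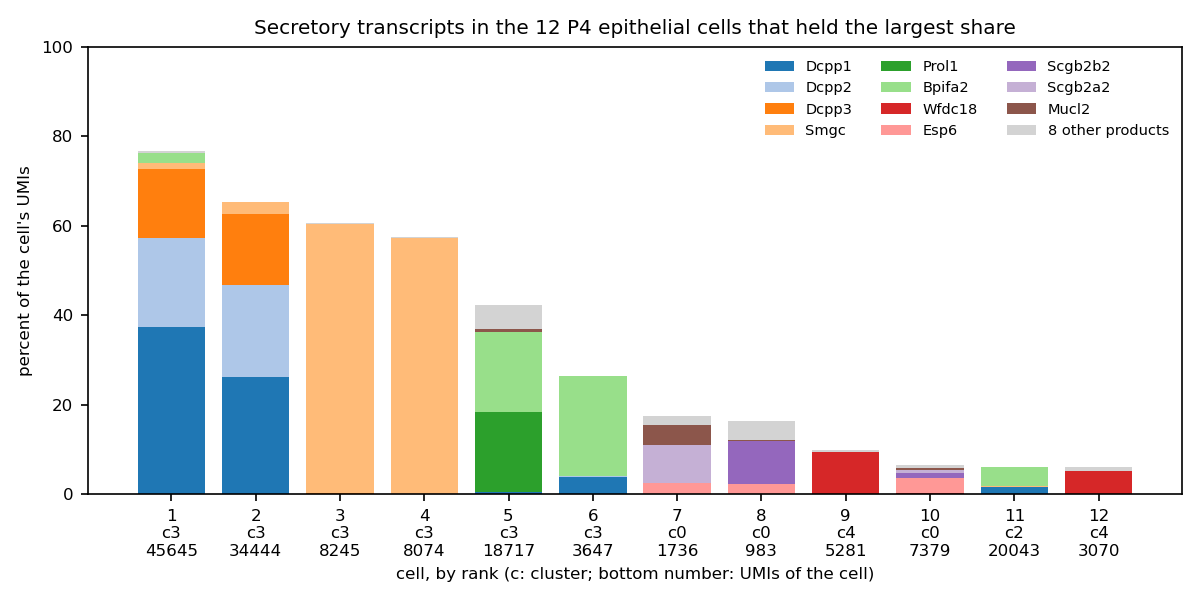
Share of each cell's UMIs (y axis, percent) taken by secretory transcripts in the 12 P4 epithelial cells with the largest share (x axis, with cluster and total UMIs). The tallest bars are each filled by 1 gene family, Dcpp in the first 2 cells and Smgc in the next 2.

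Over all 85 cells, 19 secretory genes (chosen with their values known) took a median of 0.714% of a cell's UMIs, with a range of 0 to 76.7%. They reached 10% in 8 cells and 1% in 36. Cluster medians were 4.83% in cluster 3, 2.63% in cluster 0, 1.67% in the duct-like cluster, 0.334% in the myoepithelial-like cluster and 0.287% in cluster 1. Wfdc18 was the gene most often above 1%, in 15 cells, 10 of them duct-like, and reached 9.49% in 1 duct-like cell. Dcpp1, Dcpp2, Dcpp3, Smgc or Prol1 was above 1% in 10 cells, and Scgb2b2, Scgb2a2, Mucl2, Pip or Esp6 in 8 cells. In 1 cell a gene of each group was above 1%. Sftpd or Wfdc18 was above 1% in 15 cells, of which 2 had a gene of the first group and 1 of the second. Bpifa2 was above 1% in 6 cells, 4 of them with the first group and 0 with the second. With so few of the 85 cells in each group, these overlaps do not show whether the groups exclude each other.

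The rule left out most of the Dcpp transcripts in the library. Of 164649 Dcpp UMIs in all P4 barcodes, 56142 (34.1%) were in the 85 cells and 107117 (65.1%) were in 4 other barcodes, each with 83.4 to 89.7% Dcpp UMIs. Those 4 had 1 to 19 epithelial UMIs and 4 to 47 mesenchymal UMIs. Over the UMIs that were not Dcpp, they held 25.6 to 71.2 mesenchymal UMIs per 10000, against 15.2 and 13.2 in the 2 Dcpp-rich epithelial cells. Levels of Dcpp genes in the 85 cells therefore do not give those of all Dcpp-rich cells.

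The most abundant secretory genes also had UMIs in cells with an E of 0. Dcpp1 had a UMI in 76.5% of the epithelial cells, and after thinning in 53.2% of 77 epithelial cells and 39.4% of 216 cells with an E of 0, whose median depths before thinning were 3647 and 3427 UMIs over all 85 and 227 cells. Dcpp2 was in 22.1% and 27.3% of thinned cells, so its detection was no higher in epithelium. Smgc was in 24.7% and 17.1%, and Prol1 in 5.19% and 4.17%. Low levels of these genes in a cell were not read as expression. Whether free RNA gave these UMIs was not tested. Duct-like cells had Dcpp1 at 3.31 CP10K, under the 4.73 of cells with an E of 0. Wfdc18 (39.0% against 3.24%), Esp6 (39.0% against 0.926%), Pip (23.4% against 0.463%) and Aqp5 (24.7% against 0.463%) were more often found in epithelial cells.

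**Figure D4:**
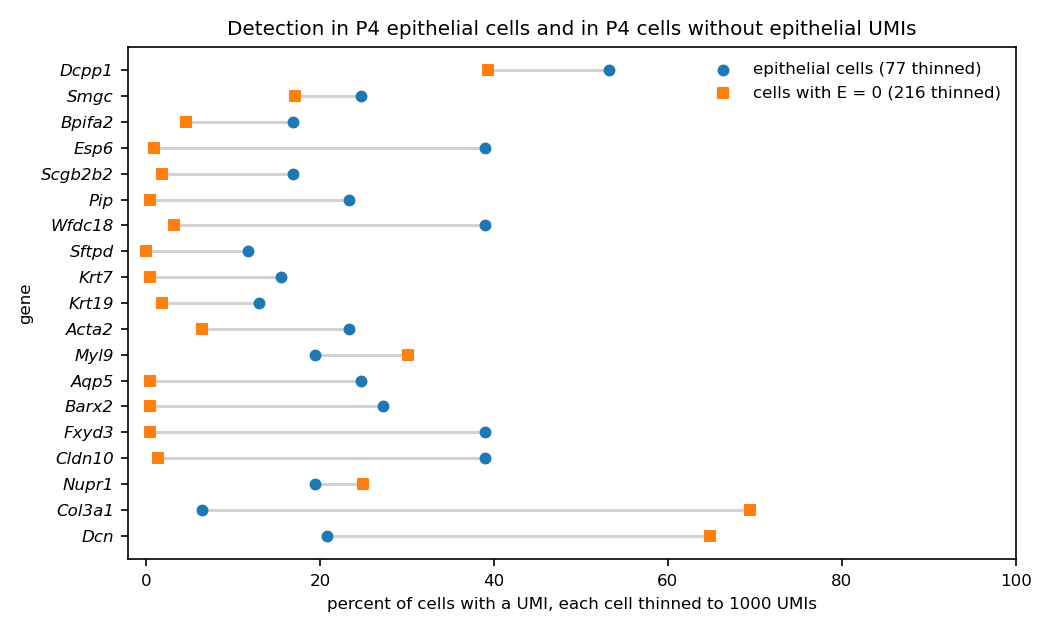
Share of cells with a UMI after thinning to 1000 UMIs (x axis, percent) for 19 genes (y axis), in P4 epithelial cells (circles) and in P4 cells with an E of 0 (squares). Dcpp1 and Smgc are found often in both sets, Esp6, Wfdc18 and Cldn10 almost only in epithelial cells, and Col3a1 and Dcn mainly in the others.

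Cluster 1 held Plk1, Shcbp1 and Ube2c, which act in mitosis, among its leading genes. Of 20 cells, 17 had at least 3 of 15 G2/M genes, and after thinning 14 of 17 did (82.4%, interval 56.6 to 96.2%). Birc5, survivin, which acts at mitosis, averaged 15.4 CP10K, and Ube2c, a ubiquitin-conjugating enzyme of mitotic exit, 14.4. Among G2/M genes with at least 30 UMIs, 12 of 14 were highest there. The share of all genes that were highest in cluster 1 is not given, so this count is a description only. Lineage genes were mixed in cluster 1, with Acta2 in 5 cells, Krt7 in 2, Wfdc18 in 7 and Esp6 in 9. In thinned cells at least 3 G2/M genes were found in 3 of 15 myoepithelial-like cells, 3 of 12 of cluster 0, 0 of 12 of cluster 3 and 0 of 15 duct-like cells. A count of 0 of 15 allows a share of up to 21.8% by the exact interval. Over all thinned epithelial cells the share was 31.2% (21.1 to 42.7%), against 9.72% (6.12 to 14.5%) of cells with an E of 0 and 32.9% (22.3 to 44.9%) of E16 epithelial cells. Unthinned shares were 52.9, 13.2 and 68.9%.

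Cluster 5 held 6 deep cells, with 7744 to 25660 UMIs. Its 10 leading genes, such as Dnajc17 and Wdr73, each had over 50% of the cluster's UMIs in 1 cell, so they do not describe the cluster. Before thinning these cells had acinar and duct transcripts together. Aqp5, at 7.78 CP10K, and Cldn10, at 10.5, were above cluster 3 and below cluster 0, whereas Esp6 was at 7.87 and Krt7 at 2.38. After thinning 0% of the 6 cells had Krt7, Krt19, Sftpd or Cyp2f2, against 66.7, 53.3, 53.3 and 40% of duct-like cells. Thinned shares in cluster 5 were 33.3% for Cldn4 and Aqp5, 50% for Cldn10 and 83.3% for Esp6. The part of depth in the mixture was not tested. At least 3 G2/M genes were found in 6 of 6 cells, and in 4 of 6 after thinning (66.7%, 22.3 to 95.7%). Among S phase genes with at least 30 UMIs, 8 of 12 were highest there. The share of all genes that were highest in cluster 5 is not given, and these cells were deep, so this count is a description only.

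Some transcription factors of gland development were found in every cluster and others were not. Barx2, a homeobox factor needed for lacrimal growth, was in 48 of 85 cells at 3.85 CP10K, and its cluster means ran from 1.62 to 6.21. Pax6, the eye master regulator, was in 27 cells and in every cluster, at 0.49 to 1.62. Sox10, needed for acinar and myoepithelial development, was in 14 cells and had no UMI in the duct-like cells or in cluster 0. Its highest cluster mean was only 0.617 CP10K, in the myoepithelial-like cells. Cluster 0 was the shallowest, with 34195 UMIs in all, so a count of 0 there does not show a difference. Tfcp2l1, a factor of duct epithelia, averaged 4.74 CP10K over the duct-like cells, 10 of which had a UMI, and at most 1.52 elsewhere. Foxq1, a forkhead factor, averaged 33.8 in the duct-like cells, but with a median of 5.51 and 1 cell at 475.

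The comparison with E16 asked which epithelial genes differ between a branching and an early secretory gland. It used cells picked by the same rule in both libraries and the ratio of mean CP10K, with a gene at 0 UMIs set to a floor of 3 counts. Of 4748 genes with enough UMIs, 474 (9.98%) were at least 2-fold higher at P4 and 802 (16.9%) at least 2-fold lower, and the median log2 ratio was -0.14. Stage and library cannot be told apart. Of 6 mesenchyme genes measured in these epithelial cells, 5 were at least 2-fold higher at P4 (median log2 ratio 1.37), and their part in the differences was not tested. A gene enters through the library where it is high, and the lists were chosen with results known, so the counts and medians of the lists are descriptions and support no direction. Fold changes below are ratios of equally weighted means unless stated, and the ratio of summed UMIs is added where it differs by over 1.5 times or falls short of 2-fold.

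Of 21 acinar genes 14 were measured, and these were at least 2-fold higher at P4, with a median log2 ratio of 7.90. Only 1 of them had enough UMIs at E16 alone. Scgb2b2 had 606 UMIs at P4 and 0 at E16. With E16 at the floor of 3 counts it was 461-fold higher as described and 201-fold with summed UMIs. In cells thinned to 1000 UMIs it was 25.6-fold higher, the lowest of 10 alternatives. Thinned cells hold fewer UMIs, so the floor of 3 counts is a higher level there. For genes at 0 UMIs in E16 this lowers the thinned ratio by itself. Pip had 273 and 0, 104-fold higher at the floor as described and 13.3-fold in thinned cells. Aqp5 had 284 and 10 UMIs, with means of 3.89 and 0.262 CP10K, 14.8-fold higher, and the ratio of summed UMIs was 28.3 (15.1 to 59.6). Lpo, lactoperoxidase, an antibacterial enzyme of tears, had 146 and 1 UMIs, a ratio of summed UMIs of 145 (interval 25.7 to 5775). Dcpp1 had 27256 and 18 UMIs, 272-fold higher (1506 with summed UMIs), but 62.5% of its P4 UMIs were in 1 cell. Secretory gene differences between the stages thus ranged from those carried by many cells to those carried by a few.

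The duct, ion transport and defence lists differed less. In the duct list, without the rule genes Krt8 and Krt18, 4 of 13 were at least 2-fold higher and 0 lower, with a median log2 ratio of 0.74. Sftpd had 144 UMIs at P4 and 0 at E16. With E16 at the floor it was 64.6-fold higher as described, 47.7-fold with summed UMIs and 9.80-fold in thinned cells, where the floor is a higher level. Cyp2f2 had 73 and 0, 28.2-fold higher at the floor as described and 24.2-fold with summed UMIs. Krt7 was 4.85-fold higher (9.05 with summed UMIs) and Clu, clusterin, 4.21-fold (6.47). Krt8 and Krt18, which the rule used, were 2.06- and 3.54-fold higher. Of 10 water and ion transport genes 6 were higher and 0 lower, among them Slc12a2, the basolateral chloride loader of secretory cells, at 7.41-fold. Car2, carbonic anhydrase, had 139 and 2 UMIs, a ratio of summed UMIs of 69.1 (18.8 to 577). Of 8 innate defence genes 6 were higher, including Pglyrp1, a peptidoglycan receptor, at 18.6-fold (44.0 with summed UMIs) and Cxcl17, a mucosal chemokine. Lcn2, lipocalin 2, which sequesters bacterial iron, was the 1 gene of that list that was lower, 2.31-fold.

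Of 13 basal genes 7 were measured. Without the rule genes Krt14 and Krt15, 3 of 5 were at least 2-fold lower at P4 and 0 higher (median log2 ratio -1.51), and with summed UMIs 2 of 5 were lower (median -0.80). Krt15, a basal keratin, had 8 UMIs at P4 and 123 at E16, 13.9-fold higher at E16. Krt14, with 162 and 291 UMIs, had a ratio of P4 over E16 of 0.493, Krt17 of 0.339, Trp63 of 0.350 and Sox10 of 0.337. With summed UMIs Krt14 and Krt17 were at 0.554 and 0.769, short of 2-fold. Of the myoepithelial genes without Krt14, 3 of 10 were higher and 0 lower, with a median of 0.32. Cnn1 had 53 UMIs at P4 and 2 at E16, a ratio of summed UMIs of 26.4 (6.95 to 223), and Mylk, myosin light chain kinase, was 2.81-fold higher (4.64 with summed UMIs). Actg2, a smooth muscle actin, was 2.38-fold higher (1.66). Acta2 differed by weighting, 1.51-fold higher with cells weighted equally and 0.98 with summed UMIs (0.874 to 1.10). Without thinning it had a UMI in 71.6% of E16 cells and 34.1% of P4 cells, whose median depths were 6152.5 and 3647 UMIs. The part of depth in these shares was not tested.

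Of 23 growth factor ligand, receptor and target genes 7 were measured, and 6 of these were at least 2-fold lower at P4 and 0 higher, with a median log2 ratio of -2.27. All 7 had enough UMIs at E16 alone, and 2 did at P4 alone. Of 20 gland transcription factors measured, 2 were higher and 5 lower, with a median of -0.22. Among the latter, Etv5 and Etv4, which are induced by fibroblast growth factor signalling, were 15.6- and 10.9-fold higher at E16, with 133 and 57 UMIs there and 11 and 4 at P4. Dusp6, a phosphatase induced by the same pathway, was 5.64-fold higher at E16, and Bmp7, a bone morphogenetic protein, 12.7-fold (ratio of summed UMIs, P4 over E16, of 0.146). Fgfr1 and Notch1, receptors of growth signals, were 4.83- and 5.38-fold higher at E16. Mdk and Ptn, related heparin-binding growth factors, had ratios of P4 over E16 of 0.288 and 0.433. Mdk was also frequent outside epithelium, at 9.04 CP10K in P4 cells with an E of 0.

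**Figure D5:**
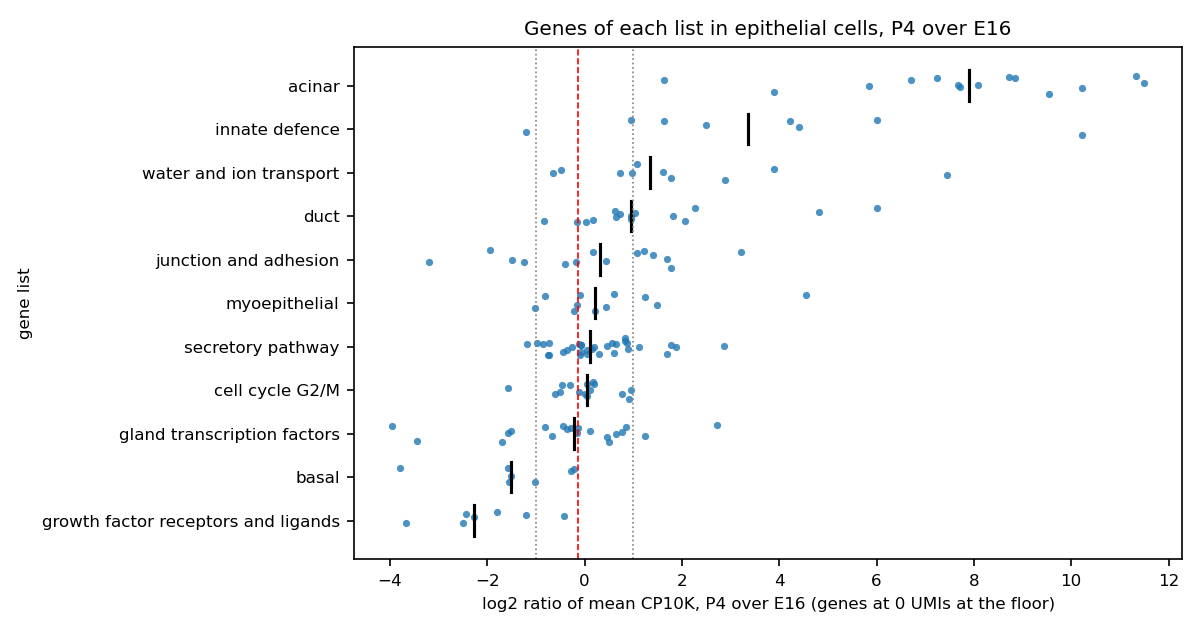
Log2 ratio of mean CP10K, P4 over E16 (x axis), of the measured genes of 11 lists (y axis) as points, with each list's median as a black bar, the median of all genes as a dashed line and 2-fold as dotted lines. The 14 measured acinar genes lie right of 2-fold, and the basal and growth factor lists lie mainly left of the dashed line.

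The claudins in use differed between the libraries. Of 10 junction genes measured outside the rule genes, 4 were higher and 3 lower. Cldn10 was 9.33-fold higher at P4, and Cldn8 and Ocln, further tight junction proteins, were 3.42- and 3.24-fold higher. Cldn3 and Cldn7, which the rule used, were 2.35- and 2.64-fold higher (4.33 and 4.35 with summed UMIs). Cldn6, a claudin of embryonic epithelia, was 9.16-fold higher at E16 (ratio of summed UMIs, P4 over E16, of 0.164), and Dsp and Pkp3, desmosome proteins, were 3.84- and 2.80-fold higher at E16. In the secretory pathway list 5 of 32 were higher, led by Sec11c at 7.26-fold, Xbp1 at 3.68 and Herpud1, a protein of endoplasmic reticulum stress, at 3.45, and 1 was lower, Canx, calnexin, 2.26-fold. Of 15 G2/M genes 0 were higher and 1 lower (Hmmr). Among 14 S phase genes 0 were higher and 1 lower (Ung, at 0.526 with summed UMIs). Immediate early genes, which tissue digestion can induce, had 0 of 11 beyond 2-fold in either direction, with Junb at 21.4 CP10K in P4 and 13.8 in E16. Over all 4748 genes 9.98% were higher and 16.9% lower, so counts this small do not set these 3 short lists apart.

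By the rule for single genes, the other P4 genes with the firmest ratios were Lrrc26, a channel subunit of secretory epithelia, at 24.7-fold (38.0 with summed UMIs) with UMIs in 49.4% of P4 cells, G0s2, a lipase inhibitor, at 22.7-fold, and Akr1c18, a steroid reductase, with 69 and 2 UMIs. Folr1, a folate receptor, had 81 and 1 UMIs, and Sbp, the spermine binding protein, had 102 and 2. Genes higher at E16 were Has2, the hyaluronan synthase, Fabp7, a fatty acid binding protein, and Crispld2, a secreted cysteine-rich protein. Has2 had 78 UMIs at E16 and 0 at P4, Fabp7 168 and 3, and Crispld2 96 and 1. With P4 at the floor Has2 was 17.1-fold higher as described, 26.1-fold with summed UMIs and 10.9-fold without the 5 deepest P4 and E16 cells. Slc7a5, an amino acid transporter, was 14.9-fold higher (25.1 with summed UMIs) and Pdpn, podoplanin, 23.3-fold. Stra6, the retinol uptake receptor, and Col2a1, a cartilage collagen, had 35 and 32 UMIs at E16 and 0 at P4. With P4 at the floor they were 7.24- and 9.32-fold higher as described, and 6.13- and 7.96-fold at the lowest of their 7 alternatives. Summed UMIs gave 11.7-fold for Stra6. Sema3b, a semaphorin, and the histone genes Hist1h2ae and Hist1h2an completed that group, with 112, 172 and 70 UMIs at E16.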

How the data were processed

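The labels describe 2 libraries of total RNA from pooled lacrimal glands of CD1 mice. The deposited files hold UMI counts, whole numbers per gene and barcode with no scaling applied. Cell Ranger and build mm10 are named, per the submitters' processing notes, with neither a version nor settings given in the sources used here. For barcoding, the protocol in the labels names Drop-seq. The files list 27775 features, of which 13 are mitochondrial with 0 UMIs, so dying cells could not be judged from them.

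From the counts, cells were picked by the stated rule and scaled to 10000 UMIs per cell in Python 3.11.15 (scipy 1.17.1, numpy 2.4.6). Members were clustered in scanpy 1.11.5 (log values, 2000 variable genes, 10 components, 10 neighbours, Leiden resolution 1). A cluster took the class with most markers among its 10 leading genes, by the ratio of means with 0.2 CP10K added, in at least 25% of its cells. At least 3 markers had to be in at least 20% of its cells. Doublets called by Scrublet numbered 4 in P4 and 3 in E16 kept cells, and they were kept. Thinning drew 1000 UMIs per cell and left out 8 of 85 members, 11 of 227 cells with an E of 0 and 1 of 74 E16 members.

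The stage comparison used genes with at least 30 UMIs over both sets and a UMI in at least 10% of cells of the higher set. With 1 library a stage there is no test. Intervals are 95%, Clopper-Pearson for shares and exact conditional for ratios of summed UMIs. The floor of 3 counts was 0.0503 CP10K in P4 and 0.0506 in E16 with all UMIs of the members. It is a higher level wherever cells or UMIs are left out. The ratio and the calling of 2-fold changes were tried on simulated data. There, all cells of a stage shared 1 expression profile, and only genes with many UMIs were checked. The simulation therefore does not cover genes near the 30 UMI minimum, mixtures of cell types or genes carried by 1 cell. Named genes were drawn from the markers and rule genes, the 5 most abundant of each list and the 10 leading genes of each cluster. The 10 genes each way with the firmest stage ratio and under 30% of UMIs in 1 cell were named as well. Many of the leading genes are not printed. Other names, mainly list genes past 2-fold, were chosen after their values were seen. The members and lists were chosen with earlier results of these data known. Coordinates came from GENCODE M21, matched on the gene identifier, and promoter windows from RefSeq. Alternatives varied the filters, the rule, the clustering settings, the scaling and the UMI minimum. Results for a few items are not reported here.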

Additional observations from a re-analysis of the deposited data

Results flagged for a closer look

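Dcpp UMIs in barcodes that the member rule left out numbered 107117. They were noted because they form a large signal in data outside the comparisons. They sat in 4 P4 barcodes, which had 57415 of 64020, 33787 of 37799, 8030 of 9525 and 7885 of 9449 UMIs from Dcpp1, Dcpp2 and Dcpp3. The barcode with the next highest share outside these and the 2 Dcpp-rich epithelial cells had 4.14%.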

How the results depend on the processing

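No paired analysis was possible because each stage is 1 library. The 85 cells became 72 to 82 under stricter rules and stayed 85 without doublet calls. The myoepithelial-like share stayed between 16.7 and 22% under all 12 alternatives. The duct-like share was 12.3 to 21.2% except with 1000 variable genes, where it was 0%. The acinar-like share was 19.4% with an E of at least 5, 42.0% with E above 2 times M and 45.9% with 1000 variable genes. The unnamed share was 51.4%, with an E of at least 5, 18.8% with cell cycle genes left out and 42.4% with 15 components. The causes were not tested. Genes at least 2-fold higher and lower at P4 numbered 2699 and 3696 with no UMI minimum (13356 genes), 154 and 192 with at least 100 UMIs (1909 genes) and 84 and 93 in thinned cells (890 genes), where other genes were measured. The median log2 ratio of all genes was -0.31 with summed UMIs. Of 252 values for 28 single genes, 230 stayed within the counting error, 22 moved and 0 changed direction past 2-fold. Many of the 230 could not move. Leaving out doublet calls removed no member, and the UMI minimum only decided which genes were measured. For genes at 0 UMIs in a library the counting error was open on 1 side. Acta2 was -0.03 with summed UMIs on the log2 scale. Clusters of 6 to 20 cells limit the precision of every share.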

Other observations

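A small group of genes had nearly all of its UMIs in a single cell. Of 2752 genes with at least 30 UMIs in the 85 cells, 35 (1.27%) had at least 80% of them in 1 cell. Among the 60 leading genes of the 6 clusters, 38 had over 50% of their UMIs within the cluster in 1 cell. These were 3 of 10 in the duct-like cluster and 4 of 10 in the myoepithelial-like cluster. In the acinar-like clusters 0 and 3 they were 7 and 8 of 10, and in clusters 1 and 5 they were 6 and 10 of 10. Dnajc17, a cofactor of splicing, had 49 of its 54 UMIs in 1 cell of cluster 5.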
